A study of Mus musculus with 12 samples.

Results

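The genes described here encode 7 myeloid C-type lectin receptors: Clec4a2, Clec4d, Clec4e, Clec4n, Clec5a, Clec7a and Clec12a. They were taken by symbol from a count table of 23621 gene rows; all 7 had a row and all 7 passed the filter on low counts, which left 10604 genes to test. The counts came from RNA sequencing of neutrophils from female Balb/c mice aged 8 weeks, in 3 groups of 4 libraries. Low-density neutrophils (LDN) and high-density neutrophils (HDN) were the density fractions of blood neutrophils from mice that carried breast cancer metastases in the liver, and Naive neutrophils were taken from marrow and not from blood. The labels name no allele, transgene or drug for any group, nor the tumour cells used. A comparison of LDN with HDN is thus made within the blood of tumour-bearing mice, while one with Naive changes tissue and tumour together.

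C-type lectin receptors are surface proteins with which myeloid cells recognise sugars and lipids of fungi and bacteria and products of dying cells. Activating members start a cascade through immunoreceptor tyrosine-based activation motifs (ITAMs), which recruit the kinase Syk and, through it, the adaptor Card9 with Bcl10 and Malt1, ending in NF-kappaB activity and cytokine transcription. Clec7a (Dectin-1, a receptor for fungal beta-glucan) carries an ITAM-like motif in its own tail. Clec4n (Dectin-2, a receptor for mannans), Clec4d (MCL) and Clec4e (Mincle, which binds mycobacterial cord factor) rely on the Fc receptor gamma chain encoded by Fcer1g. Clec5a (MDL-1) relies on DAP12, encoded by Tyrobp. Clec12a (MICL, which senses uric acid crystals) and Clec4a2 (DCIR) instead carry inhibitory motifs (ITIMs) that recruit phosphatases and restrain neutrophil activation.

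All 7 genes lie on mouse chromosome 6. Clec4a2, Clec4n, Clec4d and Clec4e sit in a row of lectin genes in the order Clec4a1, Clec4a3, Clec4a4, Clec4b1, Clec4a2, Clec4b2, Clec4n, Clec4d and Clec4e. Clec12a and Clec7a lie in another such group, in the order Clec12a, Clec12b, Clec1b, Clec9a, Clec1a and Clec7a. The group runs on past both, with Cd69 and Clec2m before Clec12a and Olr1 after Clec7a. Clec5a stands apart, with olfactory and taste receptor genes beside it. Promoter windows from RefSeq (build GRCm38.p6, 250 bases before to 50 after the annotated start) matched 6 members, and those of 5 are printed because they hold a pair of inhibitory receptors whose transcripts moved together and a pair of neighbouring activating receptors whose transcripts did not keep one ratio, with Clec7a beside them. The sequences run 5′ to 3′ on the gene's strand, and capitals mark a match, on either strand, to any of GAGGAA (PU.1), TTNNGNAA (C/EBP), TGANTCA (AP-1), GGGA and TTCC with NN between them (NF-kappaB), TTCNNNGAA (STAT) or ACGTG (HIF), which can overlap.
Clec12a (chr6:129349994-129350293, plus strand): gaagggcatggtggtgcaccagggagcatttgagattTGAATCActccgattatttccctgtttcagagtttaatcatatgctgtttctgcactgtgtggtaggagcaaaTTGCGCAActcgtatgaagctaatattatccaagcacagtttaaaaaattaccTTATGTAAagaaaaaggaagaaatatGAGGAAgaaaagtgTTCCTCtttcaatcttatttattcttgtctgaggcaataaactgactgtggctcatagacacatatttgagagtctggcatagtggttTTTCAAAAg
Clec4a2 (chr6:123122440-123122739, plus strand): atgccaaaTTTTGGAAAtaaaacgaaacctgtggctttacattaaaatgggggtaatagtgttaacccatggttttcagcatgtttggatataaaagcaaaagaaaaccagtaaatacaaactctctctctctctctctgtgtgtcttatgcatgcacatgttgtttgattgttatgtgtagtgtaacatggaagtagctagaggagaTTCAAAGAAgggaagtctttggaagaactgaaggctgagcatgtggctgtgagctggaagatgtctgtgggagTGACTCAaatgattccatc
Clec4d (chr6:123261857-123262156, plus strand): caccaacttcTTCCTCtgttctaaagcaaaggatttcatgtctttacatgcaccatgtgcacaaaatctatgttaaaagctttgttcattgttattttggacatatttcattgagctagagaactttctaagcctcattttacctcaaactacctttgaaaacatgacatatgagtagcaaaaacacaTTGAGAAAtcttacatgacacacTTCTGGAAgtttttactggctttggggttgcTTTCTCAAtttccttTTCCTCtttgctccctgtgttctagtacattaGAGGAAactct
Clec4e (chr6:123289822-123290121, minus strand): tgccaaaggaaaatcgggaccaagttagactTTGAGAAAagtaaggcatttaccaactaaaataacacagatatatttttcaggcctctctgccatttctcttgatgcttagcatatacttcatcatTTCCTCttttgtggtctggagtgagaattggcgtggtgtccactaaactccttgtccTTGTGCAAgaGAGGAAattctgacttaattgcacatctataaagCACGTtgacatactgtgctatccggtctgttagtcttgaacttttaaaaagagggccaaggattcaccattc
Clec7a (chr6:129472730-129473029, minus strand): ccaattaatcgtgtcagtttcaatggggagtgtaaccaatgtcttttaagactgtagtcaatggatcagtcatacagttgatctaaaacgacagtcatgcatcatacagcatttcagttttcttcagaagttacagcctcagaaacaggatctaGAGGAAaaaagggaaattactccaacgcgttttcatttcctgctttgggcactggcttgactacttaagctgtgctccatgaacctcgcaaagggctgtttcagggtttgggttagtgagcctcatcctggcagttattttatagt

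The inhibitory pair shared the AP-1 letters TGANTCA, which no other of the 6 member windows held and which 7.81% of all 32851 promoter windows held. In Clec12a they read TGAATCA and began at position -213 from the start, and in Clec4a2 they read TGACTCA and began at position 31. The PU.1 letters GAGGAA were in 5 of the 6 windows, all but Clec4a2, against 28.3% of all windows. The C/EBP letters TTNNGNAA were in 5 of the 6, all but Clec7a, against 40.7% of all windows. The STAT letters were in Clec4a2 alone (8.30% of all windows), the HIF letters in Clec4e alone (19.6%) and the NF-kappaB letters in none of the 6 (1.47%). These matches describe the letters of the windows and say nothing of binding. No binding or methylation was measured in these samples.

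The LDN libraries held 23181686 to 26456768 counts, the HDN libraries 20049857 to 30044508 and the Naive libraries 18113922 to 27741885. Levels are given as CPM, counts per 1000000 after scaling by the trimmed mean of M values (TMM), with the libraries of LDN and HDN in the order 3, 4, 5 and 7 and those of Naive in the order 1, 2, 3 and 4. A difference is given as a log2 fold change with its SE, both from the quasi-likelihood test of edgeR, and was called at an adjusted p under 0.05 (Benjamini-Hochberg over all 10604 genes). The level worth 3 reads, taken as the floor, was 0.0954 to 0.153 CPM, a limit that covers counting error only. HDN 7 stood apart in its scaling factor, 1.28 against 0.825 to 1.09 in the other libraries. The labels do not say whether libraries of a group came from separate mice, so the spread behind each p-value may be technical. The LDN and HDN columns carry a date-like tag that the Naive columns lack, so a library batch and the contrast with Naive cannot be told apart. In these bulk samples fewer cells of a type and less RNA per cell cannot be told apart either. All 8 neutrophil markers were detected in every group, which does not by itself establish identity. Their summed level was 163953 to 211166 CPM in LDN, 78367 to 127137 CPM in HDN and 138355 to 171623 CPM in Naive. S100a8 and S100a9 made most of this sum. S100a8 averaged 74348, 35725 and 53258 CPM in LDN, HDN and Naive, and S100a9 80293, 44708 and 69779 CPM. The other markers did not all follow the sum. Between LDN and HDN, 4 of the 8 were called higher in LDN, beside 26.0% of all genes, and 3 did not pass. Csf3r was lower in LDN (-1.13 ± 0.19, adjusted p = 0.000392).

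Clec12a, the uric acid crystal receptor that carries an inhibitory motif, was lowest in HDN, intermediate in LDN and highest in Naive marrow. It had 191, 155, 231 and 162 CPM in LDN, 56.4, 40.6, 63.3 and 61.6 CPM in HDN and 368, 376, 411 and 419.5 CPM in Naive. The ranges of the 3 groups did not overlap. Clec12a was 3.33-fold higher in LDN than in HDN (1.74 ± 0.16, adjusted p = 3.25e-06). It was 7.09-fold lower in HDN than in Naive (-2.83 ± 0.17, adjusted p = 8.97e-09) and 2.13-fold lower in LDN than in Naive (-1.09 ± 0.16, adjusted p = 5.77e-05).

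Clec4a2, the other receptor with an inhibitory motif, followed the same order. It had 138, 139.9, 181 and 127 CPM in LDN, 51.4, 43.3, 69.0 and 33.9 CPM in HDN and 361, 319, 343 and 336 CPM in Naive, again with no overlap between any groups. It was 2.97-fold higher in LDN than in HDN (1.57 ± 0.19, adjusted p = 2.43e-05). It was 6.87-fold lower in HDN than in Naive (-2.78 ± 0.20, adjusted p = 4.39e-08) and 2.32-fold lower in LDN than in Naive (-1.21 ± 0.19, adjusted p = 9.54e-05). The replicates of Naive lay close together for both genes, within 1.14-fold of each other for Clec12a and 1.13-fold for Clec4a2.

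Clec5a, the DAP12-coupled receptor, also fell in HDN against Naive, and its LDN libraries were split. It had 53.8, 15.3, 65.5 and 20.2 CPM in LDN, 17.8, 6.90, 17.4 and 20.036 CPM in HDN and 64.4, 75.4, 76.4 and 74.3 CPM in Naive. LDN 3 and LDN 5 lay far above every HDN library, whereas LDN 4 and LDN 7 lay within or just above the HDN range. Clec5a was 4.68-fold lower in HDN than in Naive (-2.23 ± 0.43, adjusted p = 0.000475) and was called higher in LDN than in HDN (1.32 ± 0.42, adjusted p = 0.0194) although these groups overlapped. That call ended without LDN 3 (adjusted p = 0.0582), without LDN 5 (0.0735), with only the 2 groups in the fit (0.0703) and with no filter on low counts (0.0530), in a range of adjusted p from 0.00413 to 0.0735 over all alternatives. LDN against Naive did not pass (-0.91 ± 0.41, adjusted p = 0.0765), and passed without LDN 5 (adjusted p = 0.0177), with DESeq2 (0.0362), with limma-voom (0.0251) and with the 20 most abundant genes left out of the library sizes (0.0277).

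Clec7a (Dectin-1), which signals to Syk through its own tail, took the opposite direction between the blood fractions. It had 112, 21.035, 86.0 and 37.9 CPM in LDN, 457, 128, 415 and 257 CPM in HDN and 119, 202, 144 and 138 CPM in Naive. All LDN libraries lay below all HDN and all Naive libraries, while HDN 4 lay within the Naive range. Clec7a was 4.89-fold lower in LDN than in HDN (-2.29 ± 0.48, adjusted p = 0.00170). It was called 2.35-fold lower in LDN than in Naive (-1.23 ± 0.46, adjusted p = 0.0379), a call that ended in 7 of 16 alternatives, at adjusted p from 0.0567 to 0.0941. These were the fits without LDN 4 (0.0674), LDN 7 (0.0941), Naive 2 (0.0898), Naive 3 (0.0608) or Naive 4 (0.0567), the fit with no filter on low counts (0.0782) and the fit on the numbers that LDN and Naive share (0.0823). HDN against Naive missed the threshold (1.06 ± 0.46, adjusted p = 0.0625). It passed without HDN 4 (1.32, adjusted p = 0.0183), with DESeq2 (adjusted p = 0.0301) and with only these groups in the fit (0.0251), and was 1.02, adjusted p = 0.0344 in the authors' deposited table.

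Clec4n (Dectin-2), the mannan receptor, had the fewest reads of the 7 genes in LDN, 45 to 107 per library, and the largest fold difference of them between LDN and HDN. It had 4.47, 2.08, 2.40 and 2.14 CPM in LDN, 20.7, 25.1, 18.5 and 11.8 CPM in HDN and 5.77, 8.82, 6.51 and 6.36 CPM in Naive. The 3 groups did not overlap, and LDN was the lowest. Clec4n was 6.83-fold lower in LDN than in HDN (-2.77 ± 0.29, adjusted p = 9.05e-06). It was 2.77-fold higher in HDN than in Naive (1.47 ± 0.27, adjusted p = 0.000377) and 2.47-fold lower in LDN than in Naive (-1.30 ± 0.29, adjusted p = 0.00161).

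Clec4d (MCL), the partner receptor of Mincle, was highest in HDN. It had 321, 287, 319 and 329.8 CPM in LDN, 777, 778, 855 and 638 CPM in HDN and 445, 389.8, 342 and 324 CPM in Naive. Every HDN library lay above every LDN and Naive library, while LDN and Naive overlapped. Clec4d was 2.43-fold lower in LDN than in HDN (-1.28 ± 0.13, adjusted p = 6.28e-06) and 2.03-fold higher in HDN than in Naive (1.02 ± 0.13, adjusted p = 1.12e-05). LDN against Naive did not pass (-0.26 ± 0.13, adjusted p = 0.106). It passed with DESeq2 (-0.31, adjusted p = 0.0453) and with the 20 most abundant genes left out of the library sizes (-0.54, adjusted p = 0.00011).

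Clec4e (Mincle), the gene next to Clec4d, was raised in both blood fractions. It had 441, 242, 516 and 285 CPM in LDN, 478, 252, 543 and 330.2 CPM in HDN and 125, 134, 102 and 105 CPM in Naive. All 8 blood libraries lay above all Naive libraries, and LDN and HDN overlapped throughout. Clec4e was 3.19-fold higher in LDN than in Naive (1.67 ± 0.27, adjusted p = 0.000135) and 3.44-fold higher in HDN than in Naive (1.78 ± 0.27, adjusted p = 5.92e-05). Between LDN and HDN the difference did not pass (-0.11 ± 0.26, adjusted p = 0.754), with an interval of 2 SE on either side from -0.63 to 0.41. Its sign turned without LDN 4 (0.04) and without HDN 5 (0.07). This fit did not use the replicate number, so its SE and interval include the spread between numbers.

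**Figure D1:**
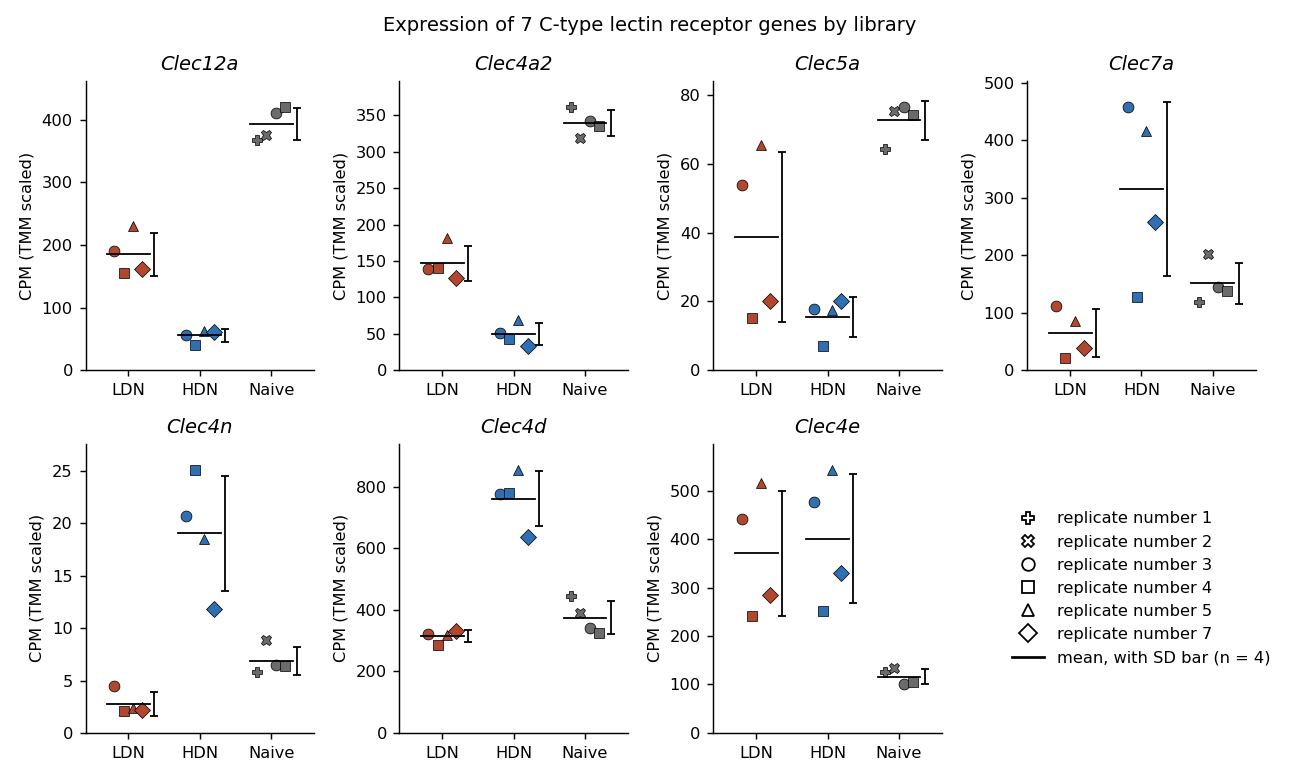
TMM-scaled CPM of each receptor gene by library on linear axes from 0, with LDN, HDN and Naive from left to right, a bar at each group mean, an SD bar (n = 4) and a symbol for each replicate number. Clec12a and Clec4a2 stand lowest in HDN and highest in Naive, Clec4n and Clec4d highest in HDN, and Clec4e above Naive in all 8 blood libraries.

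In LDN against HDN, 3 members were higher (Clec12a, Clec4a2 and Clec5a), 3 were lower (Clec7a, Clec4n and Clec4d) and Clec4e did not pass. Over all genes tested, 46.3% were called in this comparison, 26.0% higher and 20.3% lower. The libraries did not overlap for 5 of the 7 members, against 39.2% of all genes. The median over the members was -0.11, and over all genes 0.02. Of the members 6 of 7 were thus called beside 46.3% of all genes, with equal numbers in each direction.

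In HDN against Naive, Clec4d, Clec4e and Clec4n were higher, Clec12a, Clec4a2 and Clec5a were lower, and Clec7a did not pass. Over all genes 59.8% were called, 30.0% higher and 29.9% lower. The libraries did not overlap for 6 of the 7 members, against 53.3% of all genes, and the median was 1.02 over the members and 0.04 over all genes. In LDN against Naive, Clec4e was higher, Clec12a, Clec4a2, Clec7a and Clec4n were lower, and Clec4d and Clec5a did not pass. Over all genes 54.2% were called, 27.4% higher and 26.8% lower. The libraries did not overlap for 5 of the 7 members, against 55.3% of all genes, and the median was -1.09 over the members and 0.01 over all genes. Each of these comparisons shares a group of libraries with each other one, so they are not separate evidence.

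The balance of calls over all genes depended on the scaling. With the 20 most abundant genes left out of the library sizes, 2245 genes were higher and 2778 lower in LDN against HDN, 2488 and 3678 in HDN against Naive, and 1850 and 3971 in LDN against Naive, beside 2761 and 2153, 3177 and 3167, and 2910 and 2840 with TMM. That scaling moved the median of all genes to -0.12, -0.11 and -0.28 on the log2 scale, and no member changed direction under it.

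**Figure D2:**
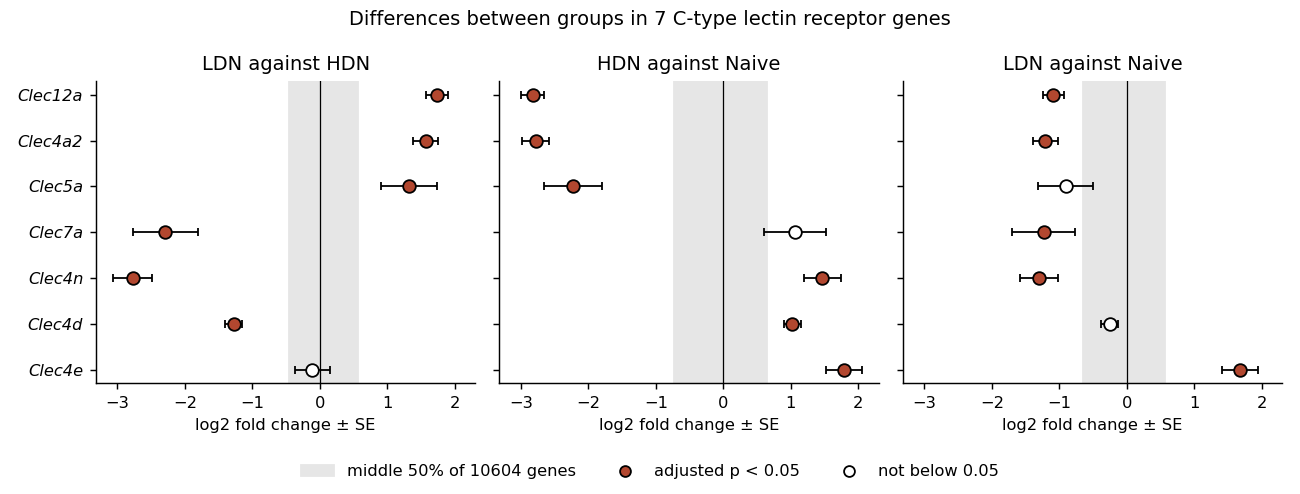
log2 fold change ± SE of each receptor gene in 3 comparisons, filled where the adjusted p from edgeR was under 0.05, over a grey band that holds the middle 50% of all 10604 genes. Clec12a, Clec4a2 and Clec5a lie right of 0 in LDN against HDN and left of 0 in HDN against Naive, Clec7a, Clec4n and Clec4d the reverse, and Clec4e lies right of 0 in both comparisons with Naive.

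Per kilobase of the longest RefSeq-matched transcript in GENCODE M21, Clec4d was the most abundant of the 7 in each group, at 237 ± 14.2 CPM per kilobase in LDN, 576 ± 68.2 in HDN and 284 ± 40.9 in Naive (mean ± SD, n = 4). The places behind it differed by group. In LDN, Clec4e followed (96.2 to 205), then Clec12a (62.1 to 92.3) and Clec4a2 (51.0 to 73.1), which overlapped, then Clec7a (9.26 to 49.4) and Clec5a (4.09 to 17.5), which overlapped, and last Clec4n (1.69 to 3.63). In HDN, Clec4e (99.971 to 216) and Clec7a (56.2 to 201) followed and overlapped, then Clec12a (16.2 to 25.3), Clec4a2 (13.7 to 27.8) and Clec4n (9.63 to 20.4), which overlapped, and last Clec5a (1.84 to 5.35). In Naive, Clec12a (147 to 168) and Clec4a2 (128 to 145) came next, then Clec7a (52.4 to 89.0) and Clec4e (40.4 to 53.1), which just overlapped, then Clec5a (17.2 to 20.4) and Clec4n (4.70 to 7.18). The inhibitory pair thus held the places after Clec4d in Naive, and Clec4e held that place in LDN. With the length of all annotated exons joined, Clec4a2 stood above Clec12a in every group, Clec4n above Clec12a in HDN and Clec7a above Clec4e in HDN, so these orders depend on the length used.

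The share of each gene in the receptor reads of a library does not depend on scaling. Clec12a held 16.6% ± 1.18 of the reads on the 7 genes in LDN, 3.49% ± 0.710 in HDN and 27.1% ± 2.64 in Naive. Clec4a2 held 13.3% ± 2.17, 3.04% ± 0.478 and 23.4% ± 1.46 in LDN, HDN and Naive. HDN libraries had only a small part of their receptor reads on the inhibitory pair. Clec4d held 48.3% ± 8.83 in HDN, against 25.7% ± 3.02 in Naive, and Clec4e held 32.4% ± 4.18 in LDN, 24.3% ± 3.27 in HDN and 7.98% ± 0.800 in Naive. Together the 7 genes took 0.0765% to 0.116% of all counts in LDN, 0.133% to 0.200% in HDN and 0.140% to 0.157% in Naive, so every LDN library lay below every library of the other groups by this share of the raw counts. In TMM-scaled CPM their sum was 863 to 1401 in LDN, 1274 to 1981 in HDN and 1404 to 1504 in Naive, and LDN and HDN overlapped.

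**Figure D3:**
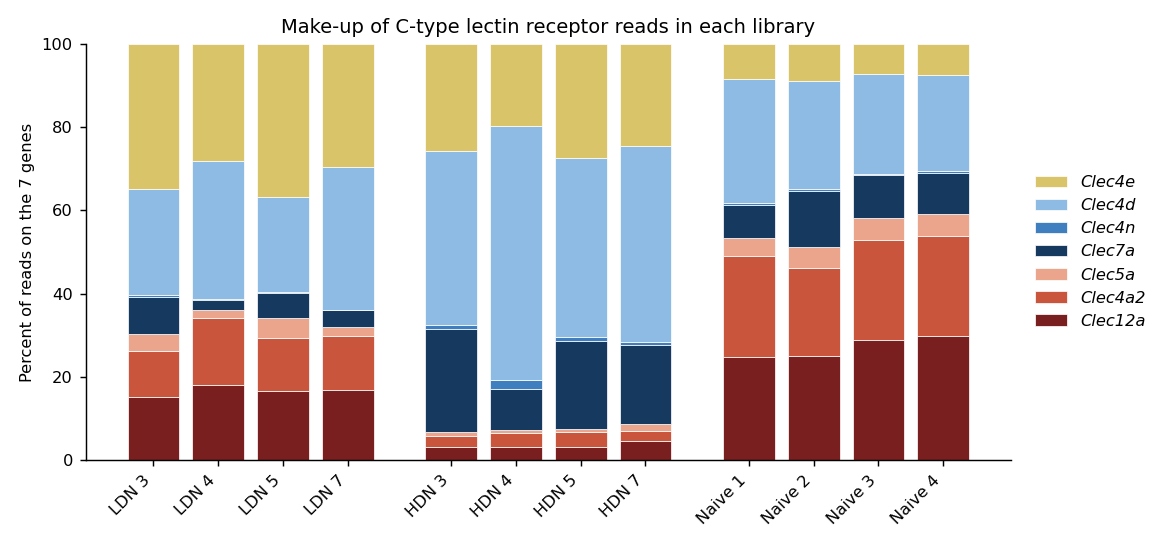
Percent of the reads on the 7 receptor genes that each gene held in each library, stacked to 100, with LDN, HDN and Naive from left to right. Clec12a and Clec4a2 fill 3.49% and 3.04% on average in HDN, against 27.1% and 23.4% in Naive, and Clec4e fills more in LDN and HDN than in Naive.

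Mincle and MCL proteins form a joint receptor, and their transcripts did not keep one ratio. There were 1.37, 0.844, 1.62 and 0.866 Clec4e reads per Clec4d read in LDN, 0.615, 0.323, 0.635 and 0.517 in HDN and 0.281, 0.343, 0.298 and 0.325 in Naive. Each LDN library was above each HDN library, and each HDN library but HDN 4 was above each Naive library. Clec12a and Clec4a2 moved nearly in step, with 1.38, 1.11, 1.27 and 1.28 Clec12a reads per Clec4a2 read in LDN, 1.0971, 0.939, 0.918 and 1.82 in HDN and 1.02, 1.18, 1.20 and 1.25 in Naive, all overlapping, with HDN 7 the highest. Clec7a and Clec4n kept a ratio near 22 in Naive (20.6, 22.9, 22.1 and 21.8 Clec7a reads per Clec4n read) and in 3 of the 4 HDN libraries, whereas HDN 4 had 5.10 (22.1, 5.10, 22.5 and 21.7 in HDN). In LDN this ratio was scattered, at 25.1, 10.1, 35.8 and 17.7.

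**Figure D4:**
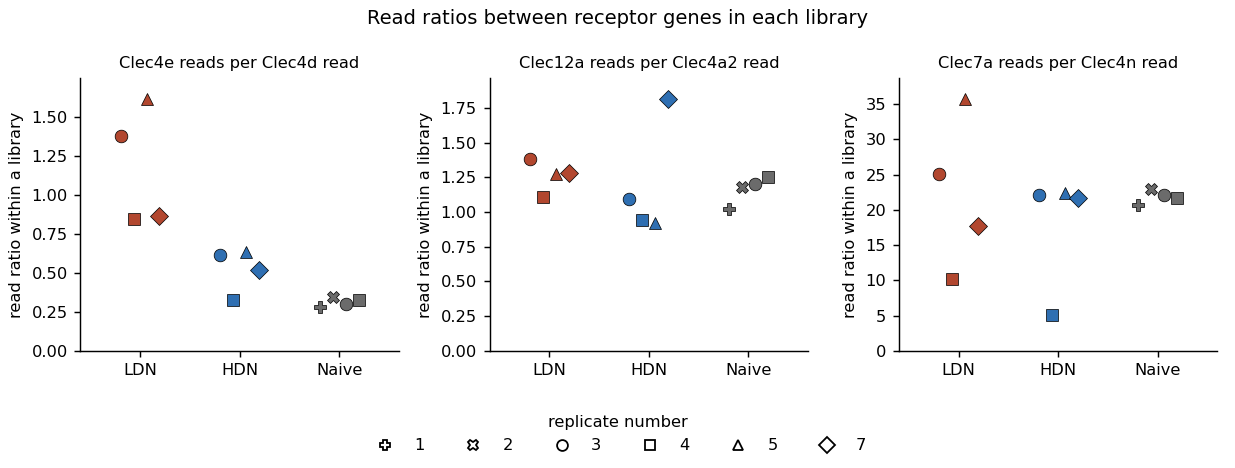
Ratio of reads between receptor genes within each library, on linear axes from 0, with a symbol for each replicate number. The Clec4e to Clec4d ratio is above 0.8 in each LDN library and below 0.7 in each HDN and Naive library, and HDN 4 stands alone at 5.10 in the Clec7a to Clec4n ratio.

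The spread within the blood groups followed the replicate number for some receptors. Clec4e and Clec7a were higher in numbers 3 and 5 than in numbers 4 and 7 in both fractions, and Clec5a and Clec12a were so in LDN. The log2 difference of Clec4e between LDN and HDN with the same number was -0.11, -0.06, -0.07 and -0.21 for numbers 3, 4, 5 and 7, a narrow range beside the 2.13-fold spread between LDN libraries. With the replicate number as a block it was -0.17 and still did not pass (adjusted p = 0.131). For Clec7a the same differences were -2.03, -2.60, -2.27 and -2.76, and for Clec12a 1.76, 1.94, 1.87 and 1.39. Clec5a was the exception, at 1.59, 1.15, 1.92 and 0.01, with number 7 close to 0. Each of the 7 members kept its direction in all 4 pairs, though Clec5a in number 7 and Clec4e in all pairs lay near 0.

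Neighbouring lectin genes on chromosome 6 did not move as blocks. Clec4a1 and Clec4a3, relatives of Clec4a2 in the same row of genes, went against it between the blood fractions. Clec4a1 was 3.55 ± 0.924 CPM in LDN, 10.7 ± 2.88 CPM in HDN and 3.65 ± 0.550 CPM in Naive (LDN against HDN -1.59 ± 0.24, adjusted p = 0.000155; HDN against Naive 1.55 ± 0.24, adjusted p = 7.89e-05). Clec4a3 was 4.79 ± 2.17 CPM in LDN, 16.1 ± 9.43 CPM in HDN and 9.19 ± 0.757 CPM in Naive, with overlap between the blood fractions (LDN against HDN -1.74 ± 0.43, adjusted p = 0.00474). Clec4b2, on the other side of Clec4a2, was 0.227 ± 0.0717 CPM in LDN, 0.277 ± 0.108 CPM in HDN and 2.39 ± 0.743 CPM in Naive (HDN against Naive -3.07 ± 0.35, adjusted p = 4.45e-06). The LDN and HDN means of Clec4b2 were not far above the floor of 3 reads. Clec4a4 and Clec4b1 were below the filter. The coding sequence of Clec4a2 was 77.22% identical to that of Clec4a4, 68.18% to Clec4a3 and 63.67% to Clec4a1, and 6.69% of the 50-base words of its transcripts also occurred in other genes, Clec4a4 and Clec4b1 first, so its counts carry some uncertainty. For Clec4d, Clec4e, Clec5a and Clec7a this share was 0, and for Clec4n and Clec12a it was 0.686% and 0.402%. Clec4d and Clec4e, adjacent and 54.65% identical in coding sequence, were both higher in HDN than in Naive. In LDN against Naive Clec4e passed and Clec4d did not, and in LDN against HDN Clec4d passed and Clec4e did not.

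The gene group around Clec12a and Clec7a on the chromosome was likewise mixed. Clec12b and Clec1a, which lie between Clec12a and Clec7a with Clec1b and Clec9a, were low in every group and were called higher in HDN than in LDN. Clec12b was 0.0708 ± 0.0647 CPM in LDN, 0.959 ± 0.432 CPM in HDN and 0.183 ± 0.117 CPM in Naive (LDN against HDN -3.67, adjusted p = 0.000277). Clec1a was 0.0430 ± 0.0591 CPM in LDN, 1.12 ± 0.358 CPM in HDN and 0.278 ± 0.203 CPM in Naive, and the LDN mean of both genes was under the floor of 3 reads (Clec1a, LDN against HDN -4.45, adjusted p = 0.000161). Both took the direction of Clec7a between the blood fractions. Clec1b, a receptor best known on platelets, took that of Clec12a, at 0.472 ± 0.243 CPM in LDN, 0.211 ± 0.0882 CPM in HDN and 1.15 ± 0.135 CPM in Naive, with no overlap between any groups (LDN against HDN 1.20 ± 0.41, adjusted p = 0.0286; HDN against Naive -2.46 ± 0.38, adjusted p = 8.28e-05). Clec1b had 168 reads over all 12 libraries, and its HDN mean was not far above the floor of 3 reads. Clec9a was below the filter. Olr1, the oxidised-lipoprotein receptor gene just beyond Clec7a, was also higher in LDN than in HDN, at 4.07 ± 1.83 CPM in LDN, 0.394 ± 0.171 CPM in HDN and 20.2 ± 3.75 CPM in Naive (LDN against HDN 3.40 ± 0.38, adjusted p = 1.46e-05; HDN against Naive -5.71 ± 0.39, adjusted p = 3.16e-08). The HDN mean of Olr1 was likewise not far above the floor. Of 30 other C-type lectin genes, 15 could be tested. In LDN against HDN 5 were higher and 5 lower (median -0.23), beside 26.0% and 20.3% of all genes. In HDN against Naive there were 5 and 7 (median -0.57), beside 30.0% and 29.9% of all genes. In LDN against Naive there were 2 and 7 (median -0.94), beside 27.4% and 26.8% of all genes. Mrc2, a collagen receptor of the mannose receptor family, was 0.0567 ± 0.0584 CPM in LDN, 0.759 ± 0.215 CPM in HDN and 0.0350 ± 0.0480 CPM in Naive, with the means of LDN and Naive under the floor (LDN against HDN -3.61; HDN against Naive 4.35). Mgl2, a galactose-binding lectin of macrophages and dendritic cells, had 0 reads in HDN and averaged 0.0336 CPM in LDN and 0.960 CPM in Naive, so no fold is given for it.

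The shared adaptor genes were abundant and did not pass in any comparison. Fcer1g, the gamma chain that Clec4n, Clec4d and Clec4e use, was 724 ± 58.0 CPM in LDN, 702 ± 150.1 CPM in HDN and 673 ± 109.8 CPM in Naive. Tyrobp, which Clec5a uses, was 1164 ± 63.5 CPM, 1222 ± 255 CPM and 1331 ± 296 CPM in LDN, HDN and Naive. Their adjusted p lay between 0.378 and 0.846 over the 3 comparisons, with log2 fold changes from -0.19 to 0.11. Syk was 1020.2 ± 40.8 CPM in LDN, 1355 ± 269.6 CPM in HDN and 1016 ± 64.9 CPM in Naive, called with overlap in LDN against HDN (-0.41 ± 0.14, adjusted p = 0.0272) and in HDN against Naive (0.42 ± 0.14, adjusted p = 0.0196). Card9 was 182 ± 7.45 CPM in LDN, 219 ± 19.0 CPM in HDN and 169 ± 20.034 CPM in Naive, higher in HDN than in Naive (0.37 ± 0.11, adjusted p = 0.00924), and LDN against HDN did not pass (-0.27, adjusted p = 0.0588).

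Of 19 adaptor, kinase and Card9-complex genes, 18 were tested, all but Src. In LDN against HDN 3 were higher and 3 lower, with a median of 0.02, beside 26.0% and 20.3% of all genes. The higher ones included Plcg2, the phospholipase below Syk (0.66), and Prkcd, the protein kinase C that acts on Card9 (0.29), and the lower ones included Hcst, the DAP10 adaptor (-0.48), and Syk (-0.41). In HDN against Naive 6 were higher and 3 lower (median 0.26), beside 30.0% and 29.9% of all genes. Among them were the Src-family kinase gene Lyn at 0.82, Pik3cd at 0.58, Traf6 at 0.57 and Plcg2 at -0.90. In LDN against Naive 5 were higher and 2 lower (median 0.11), beside 27.4% and 26.8% of all genes, with Lyn at 1.06 and Hcst at -0.71. No call in this list exceeded 1.06 in size. Among 5 phosphatase and Cbl genes, Ptpn6, the phosphatase SHP-1 recruited by inhibitory motifs, passed in LDN against HDN (0.50 ± 0.14, adjusted p = 0.00851). Its level was 1243 ± 99.3 CPM in LDN, 876 ± 139 CPM in HDN and 1013 ± 111 CPM in Naive. The median of these 5 genes was 0.21 in LDN against HDN, -0.13 in HDN against Naive and 0.11 in LDN against Naive.

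Other receptors that use the same adaptors were called in both directions, as genes at large were. Of 11, 10 were tested, and in LDN against HDN 2 were higher and 2 lower (median 0.23), beside 26.0% and 20.3% of all genes. Trem3, an activating receptor of the Trem family, was 217 ± 39.5 CPM in LDN, 98.6 ± 29.8 CPM in HDN and 474 ± 48.2 CPM in Naive, the order of Clec12a and Clec4a2 (LDN against HDN 1.14 ± 0.21, adjusted p = 0.000635). Sirpb1a was 65.7 ± 17.3 CPM in LDN, 168 ± 33.8 CPM in HDN and 53.4 ± 6.03 CPM in Naive (LDN against HDN -1.36 ± 0.19, adjusted p = 9.1e-05), highest in HDN as Clec4d was. Trem2 was higher in LDN (3.29), with 0.0883 CPM in HDN, under the floor, and Fcgr4 was lower in LDN with overlap (-0.67). In HDN against Naive 4 were higher and 3 lower (median -0.04), beside 30.0% and 29.9% of all genes. The largest were the Fc receptor gene Fcgr1 (3.64), Trem3 (-2.26), Fcgr4 (1.76) and Sirpb1a (1.65). In LDN against Naive 5 were higher and 4 lower (median 0.37), beside 27.4% and 26.8% of all genes. The largest were Fcgr1 (4.03), Trem2 (2.74), Cd300lb (-1.53) and Trem3 (-1.13).

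Genes known in mouse macrophages and dendritic cells to be induced through these receptors were mostly lower in LDN. Of 13, 8 could be tested, and Il6, Il10, Il12b, Il23a and Csf2 were below the filter. In LDN against HDN 5 were lower and 1 higher (median -1.77, against 0.02 over all genes). Over all genes 20.3% were called lower and 26.0% higher. The lower response genes included Ptgs2, the inducible cyclooxygenase (-3.34, with overlap), Il1b (-2.46), and the transcription factor genes Egr2 (-2.26, with overlap) and Egr3 (-1.89). In LDN Ptgs2, Egr2 and Egr3 averaged 0.231, 0.602 and 0.326 CPM, not far above the floor of 3 reads, so their folds rest on few reads. Nlrp3, the inflammasome sensor, was lower too, with 55.3 ± 8.47 CPM in LDN, 172 ± 36.7 CPM in HDN and 214 ± 35.5 CPM in Naive (LDN against HDN -1.64 ± 0.17, adjusted p = 9.72e-06), and Tnf was higher (0.83). In HDN against Naive 3 were called, each lower (median -0.57), beside 29.9% of all genes called lower. These 3 were Ptgs2 (-4.49), Tnf (-2.70) and Egr3 (-1.55). In LDN against Naive 7 were called, each lower (median -1.98), beside 26.8% of all genes called lower. Among the 7 were Ptgs2 (-7.83), Egr3 (-3.44), Egr2 (-2.28) and Il1b (-2.01). These genes respond to many other signals as well.

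**Figure D5:**
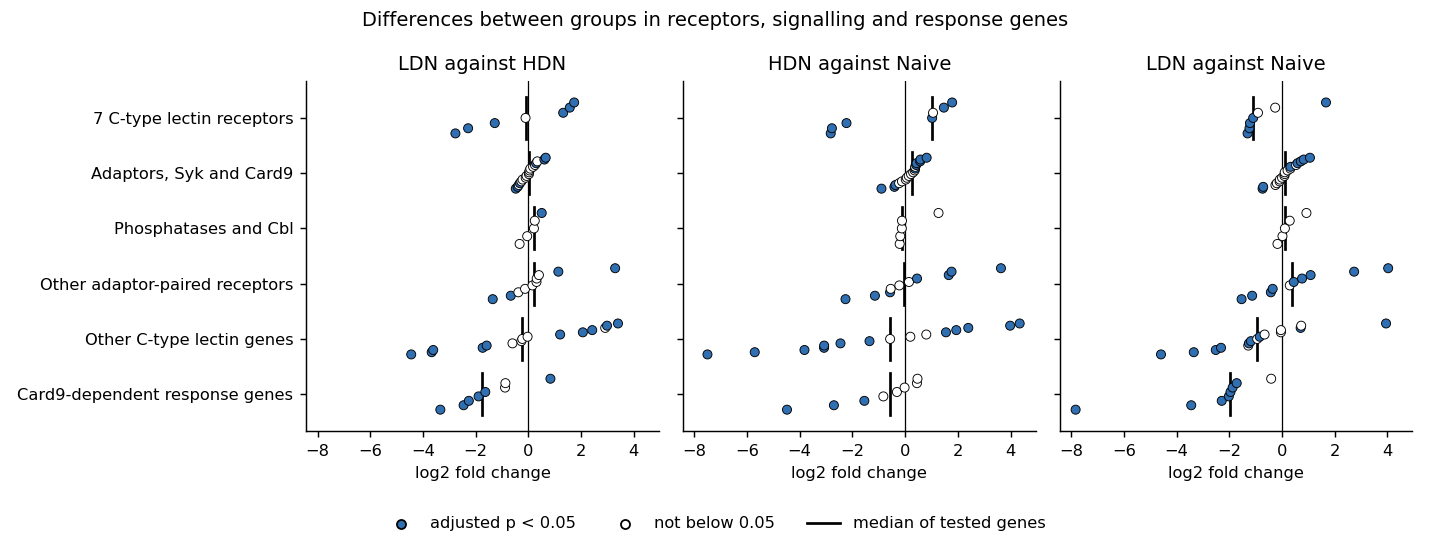
log2 fold change of each tested gene in the receptor, signalling and response lists for 3 comparisons, filled where the adjusted p from edgeR was under 0.05, with a bar at the list median. The adaptor and Syk-Card9 genes lie within about 1 log2 unit of 0, while the receptors spread to both sides and the response genes lie mostly left of 0 in both LDN comparisons.

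By the root mean square difference of centred log2 CPM over the 12 libraries, each receptor was set beside every other gene whose mean log2 CPM reached 4. This describes a shared pattern only, since the points share group, tissue and library. The nearest to Clec4a2 were Plbd1 (0.12 log2 units), Fmnl3 (0.14) and Setd8 (0.14), and the median distance over all candidates was 1.27. Clec12a ranked 10 among 4789 genes for Clec4a2, at 0.25, and Clec4a2 ranked 5 for Clec12a, behind Tesk2 (0.18), L1cam (0.21) and Setd8 (0.22) among others. Clec5a, an activating receptor, was nearest to Far1 (0.22), Syne1 (0.31) and Megf9 (0.33), and Clec12a ranked 18 for it, at 0.52.

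Clec7a, Clec4n, Clec4d and Clec4e had other neighbours. Clec7a was nearest to Il1b (0.42), Gm5150 (0.49) and Slc44a1 (0.54). Clec4n was nearest to the sterol exporter gene Abcg1 (0.38), Hist1h2bc (0.40) and AF251705 (0.48). Clec4d was nearest to Abhd4 (0.11), Rasa3 (0.15) and Fxyd5 (0.18), and Clec4e to Ddx6 (0.20), Atxn1 (0.23) and 2310015A10Rik (0.23). Clec4d and Clec4e were 0.84 apart, beside a median distance to all candidates of 0.69 for Clec4d and 0.88 for Clec4e.

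Monocytes, macrophages and dendritic cells also make these receptors, so their markers are given beside the results. Of all genes tested, 26.0% were called higher and 20.3% lower in LDN against HDN. These shares were 30.0% and 29.9% in HDN against Naive, and 27.4% and 26.8% in LDN against Naive. Of 12 monocyte and macrophage markers, 11 had a row and 10 were tested, with 6 higher and 1 lower in LDN against HDN, 3 higher and 4 lower in HDN against Naive, and 5 higher and 4 lower in LDN against Naive. Their summed level was 465 to 565 CPM in LDN, 363 to 686 CPM in HDN and 649.8 to 877 CPM in Naive. Csf1r, the receptor of macrophage colony-stimulating factor, was 122 ± 17.3 CPM in LDN, 367 ± 113 CPM in HDN and 319 ± 56.036 CPM in Naive, lower in LDN than in HDN (-1.60 ± 0.21, adjusted p = 4.22e-05), as Clec7a and Clec4n were. Ly6c2, a marker of inflammatory monocytes, was 64.0 ± 15.8 CPM in LDN, 13.8 ± 8.51 CPM in HDN and 359.7 ± 44.7 CPM in Naive, the order of Clec12a and Clec4a2 (LDN against HDN 2.21 ± 0.34, adjusted p = 0.000178). Fn1, the fibronectin gene, was 176 ± 47.0 CPM in LDN, 12.6 ± 2.09 CPM in HDN and 8.60 ± 8.72 CPM in Naive. The complement genes C1qa and C1qb, which mark tissue macrophages, had 0 reads in HDN and averaged 0.162 and 0.153 CPM in LDN and 0.787 and 0.729 CPM in Naive. Dendritic cell markers summed to 6.005 to 12.1 CPM in LDN, 4.85 to 10.2 CPM in HDN and 12.8 to 18.1 CPM in Naive, with Siglech at 0 reads in LDN and HDN, Xcr1 at 0 in LDN and Cd209a at 0 in HDN. Of these 8 markers 3 were tested, and 2 were called in LDN against HDN, both higher. Eosinophil markers summed to 13.7 to 23.2 CPM in LDN, 40.5 to 86.2 CPM in HDN and 14.9 to 63.7 CPM in Naive, with Epx at 0 reads in HDN and Il5ra at 0 in LDN. Most of this sum was Siglecf in LDN (17.6 ± 3.42 CPM) and HDN (63.1 ± 21.9 CPM), and in Naive it was mostly the granule protein gene Prg2, at 26.1 ± 17.7 CPM, beside 9.80 ± 1.09 CPM of Siglecf. Of 4 tested, 2 were lower in LDN against HDN. Platelet markers summed to 28.4 to 33.7 CPM in LDN, 9.43 to 11.5 CPM in HDN and 113 to 125 CPM in Naive, and lymphocyte markers to 35.1 to 53.0 CPM, 3.59 to 19.1 CPM and 229.9 to 285 CPM in LDN, HDN and Naive, with no marker of either list at 0 in a whole group. Most of the platelet sum was Itgb3 in LDN (26.5 ± 2.44 CPM) and Naive (113 ± 4.33 CPM). In HDN it was mostly Itga2b (6.84 ± 0.910 CPM). Of the platelet markers 5 of 6 tested were higher and 1, Itga2b, was lower in LDN against HDN. Among the higher ones, Pf4, Ppbp and Gp9 averaged 0.0190, 0.0338 and 0.0175 CPM in HDN, under the floor of 3 reads. In LDN they averaged 0.314, 0.529 and 0.190 CPM. Cd3d made most of the lymphocyte sum, at 34.7 ± 6.46 CPM in LDN, 8.11 ± 4.96 CPM in HDN and 214 ± 33.8 CPM in Naive. Of the lymphocyte markers 3 of 7 were called in LDN against HDN, each higher. In HDN against Naive 6 were lower and Cd3e was higher (0.535 CPM in HDN, 0.0876 CPM in Naive). The part of these cells in the receptor results was not tested.

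The authors' deposited tables, made with DESeq2, gave the same sign as edgeR for the members in all 21 differences and the same side of the threshold in 19, with log2 fold changes within 0.092 of each other. The exceptions were Clec7a in HDN against Naive, given above, and Clec5a in LDN against Naive, which passed in the authors' deposited table (-0.92, adjusted p = 0.0446).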

How the data were processed

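Polyadenylated RNA was made into stranded libraries with a KAPA kit, per the labels' protocols. The submitters' processing notes name CASAVA 1.8.2, Trimmomatic, STAR and DESeq2 1.16.1. The build, the annotation and whether counting used strand are not stated there, so overlapping antisense genes cannot be told apart. The authors deposited raw counts per gene symbol, and all 12 columns matched a sample by name. Their comparison tables give, per the file headers, a mean normalized signal, a log2 fold change with its SE, a test statistic (a score) and p-values.

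Counts were tested with edgeR 4.0.16 in R 4.3.3 (filterByExpr by group, TMM, robust quasi-likelihood fit, group as the only term, all 12 libraries). SE is the log2 fold change divided by the root of the test's F. The alternatives were RLE scaling, library sizes without the 20 most abundant genes, no filter or at least 10 reads in at least 4 libraries, DESeq2 1.42.0, limma-voom (limma 3.58.1), only the 2 groups compared, a replicate block and leaving out each library. The test was checked on simulated data. Replicates of a group differed by a chi-square per gene of 3.44 for Naive 3 and Naive 4 and of at least 16.1 for every other pair. No library was thus counted as a copy of another. These values cannot tell libraries of separate mice from repeated libraries of the same mouse.

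LDN and HDN share the replicate numbers 3, 4, 5 and 7. An LDN and an HDN library of equal number deviated together from their group means (r over genes 0.31 to 0.76, n = 4 pairs, against -0.61 to 0.41 for unequal numbers). The numbers were thus taken to pair these samples, but only in the differences by replicate number and in the replicate block. Unless a block is named, the edgeR values for LDN against HDN come from a fit without the pairing. Where the pairing comes from is not stated in the labels. Lengths and transcripts were from GENCODE M21, promoters from RefSeq, alignments from Biopython 1.88. The members, lists, motifs and alternatives were chosen with earlier results of these data known. Named genes were the members, the adaptor genes Fcer1g, Tyrobp, Syk and Card9, up to 4 of the largest calls per list and comparison, and the 3 nearest profiles per member; chromosomal neighbours and further list genes were chosen after their values were seen. Not every gene under this rule is reported here.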

Additional observations from a re-analysis of the deposited data

Results flagged for a closer look

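In groups of 4, a library was singled out where its gap to the nearest other library divided by the group's range was above Dixon's critical value, which chance passes in about 1 in 20 groups; 42 groups of values were examined and 3 passed. For Clec4n, LDN 3 had 4.47 CPM, against 2.08 to 2.40 CPM in the other LDN libraries. For Syk, LDN 5 had 1081 CPM, against 992 to 1006 CPM in the other LDN libraries. For the ratio of Clec7a to Clec4n reads, HDN 4 had 5.10, against 21.7 to 22.5 in the other HDN libraries; in HDN 4 Clec7a was the lowest and Clec4n the highest of the HDN libraries. The causes were not tested.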

How the results depend on the processing

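For the 7 members in 3 comparisons, 313 of 336 recomputed differences kept their direction and their side of the threshold, 9 newly passed, 12 no longer passed and 2 turned sign. Both turns were of Clec4e in LDN against HDN, a difference that did not pass: 0.039 without LDN 4 and 0.072 without HDN 5, in a range from -0.31 to 0.072. The lost calls were Clec5a in LDN against HDN and Clec7a in LDN against Naive, given above, and Clec4n in LDN against Naive (-1.08, adjusted p = 0.0527 with a replicate block). With the replicate number as a block in LDN against HDN, 3 members were higher and 3 lower, as without it, 2996 genes were higher and 2963 lower, and no member's call changed. The numbers 3 and 4 that Naive shares with the blood groups did not pair them (correlations of -0.11 and -0.08 with HDN, -0.13 and 0.16 with LDN). A replicate block on those 4 libraries gave 2 members lower in LDN against Naive in place of 4, and 1830 genes higher in place of 2910. Library sizes without the 20 most abundant genes gave 1850 genes higher in LDN against Naive. Depth limited Clec4n most, with 45 to 107 reads per LDN library. The causes of these changes were not tested.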

Other observations

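Among C-type lectin genes outside the 7 members, Ly75 (DEC-205, an endocytic receptor) was 101 ± 31.1 CPM in LDN, 24.3 ± 6.45 CPM in HDN and 62.0 ± 18.4 CPM in Naive, higher in LDN than in HDN (2.06 ± 0.28, adjusted p = 5.84e-05). Cd93, a lectin-like surface protein, was 8.92 ± 2.77 CPM in LDN, 1.15 ± 0.503 CPM in HDN and 16.0 ± 3.55 CPM in Naive (LDN against HDN 2.98 ± 0.32, adjusted p = 9.51e-06). Cd302 was raised in both blood fractions, as Clec4e was. It averaged 9.15 ± 2.07 CPM in LDN, 9.36 ± 1.0969 in HDN and 0.603 ± 0.379 in Naive (LDN against Naive 3.95 ± 0.32, adjusted p = 3.71e-07; HDN against Naive 3.98 ± 0.32, adjusted p = 1.64e-07). Clec2d, a ligand of natural killer cell receptors, was 36.7 ± 6.24 CPM in LDN, 55.8 ± 23.5 CPM in HDN and 83.0 ± 6.32 CPM in Naive (LDN against Naive -1.18 ± 0.27, adjusted p = 0.00213). These genes were picked from a list of 30 after their values were seen.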
